A study of Mus musculus with 6 samples.

Results

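The genes described here build and time the division of a mouse cell. They are 55 genes for mitotic kinases and cyclins, kinetochore and spindle checkpoint proteins, spindle motors, cytokinesis factors and the machinery that condenses and separates chromosomes, taken by name for these roles. Affymetrix expression arrays were hybridised with RNA of cells the study describes as CD98hc KO and WT mouse fibroblasts, both made from embryonic stem cells. There were 3 arrays labelled CD98hc KO and 3 labelled WT (replicate numbers 1, 3 and 5 in each group). CD98hc is the heavy chain of a family of amino acid transporters. Both groups were grown in high-glucose DMEM with serum, non-essential amino acids and β-mercaptoethanol, and neither the number of clones behind each genotype nor the number of cultures behind each group's arrays is stated, so that p-values measure the spread between these 6 arrays and that spread may be technical. Of the 55 genes, 53 were measured, by 100 of the 45141 probe sets (an array's groups of short probes for 1 transcript). Ccnb1 and Nuf2 were not analysed here. The measured genes comprised 15 kinases, phosphatases and cyclins, 3 regulators of transcription and entry, 14 kinetochore and checkpoint genes, 12 genes of spindle motors and cytokinesis and 9 of condensation and separation, out of 17097 genes in all.

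In a dividing cell, the kinase CDK1 with its cyclin partners drives entry into mitosis, Polo and Aurora kinases shape the spindle, and kinetochores tie chromosomes to spindle fibres. The spindle checkpoint holds the cell until every chromosome is attached. The anaphase promoting complex then marks cyclins and securin for destruction, separase cuts cohesin, and motors and the actomyosin ring split the cell. Most of these genes are transcribed late in the cell cycle under a shared control: the MuvB core binds a short promoter element called the CHR, as part of the repressive DREAM complex in resting cells and together with the activators B-MYB (Mybl2) and FOXM1 (Foxm1) in cycling cells, and the trimeric factor NF-Y binds CCAAT boxes beside it. Because of this control the group is widely read as a sign of dividing cells.

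That element was common in the promoters of these genes. RefSeq windows (GRCm38.p6) of 300 bases, with 250 before and 50 after the annotated start, were found for 45 of the 55 genes, with 51 windows in all. A CHR (TTTGAA or TTCGAA, on either strand) stood in 36 of 51 windows (70.6%), against 15% of the windows of all genes on the array and 19.2% of all windows. A CCAAT box (CCAAT, either strand) stood in 41 (80.4%), against 37.6% and 37.4%. Both together stood in 33 (64.7%), against 5.92% and 7.52%. The core of an E2F site (GGCGGGA, either strand, a word chosen after a window had been seen) was in 11 windows (21.6%), against 16.6% and 11.3%. Matches of different motifs shared a base in 1 gene, Cdca8, between a CHR at 14 and a CCAAT box at 19 (positions are those of the leftmost base, and the first transcribed base is 1).

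Printed here are the promoter stretches of 6 genes, chosen after their values were seen so that genes of each call stand side by side, with 3 that were higher on the arrays labelled KO, 2 that were lower and 1 that did not pass. Each runs from 170 bases before to 30 after the start, 5′ to 3′ along the gene's strand, in GRCm38.p6. Capitals mark CHR, CCAAT box and E2F core matches as read on this strand, so that each can appear as its reverse complement. Cdkn3 lies at chr14:46760371-46760570, Cdc25b at chr2:131186778-131186977, Ttk at chr9:83834519-83834718, Gtse1 at chr15:85859537-85859736 and Mybl2 at chr2:163054465-163054664, all on the + strand, and Cdk1 at chr10:69352883-69353082 on the - strand.
Cdkn3: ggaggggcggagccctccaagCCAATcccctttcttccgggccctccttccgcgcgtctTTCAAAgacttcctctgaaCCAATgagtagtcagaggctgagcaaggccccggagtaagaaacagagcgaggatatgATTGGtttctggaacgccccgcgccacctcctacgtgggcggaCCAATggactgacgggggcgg
Cdc25b: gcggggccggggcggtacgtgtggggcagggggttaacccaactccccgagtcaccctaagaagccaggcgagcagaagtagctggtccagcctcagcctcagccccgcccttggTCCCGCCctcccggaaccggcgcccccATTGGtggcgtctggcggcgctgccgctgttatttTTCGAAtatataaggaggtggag
Ttk: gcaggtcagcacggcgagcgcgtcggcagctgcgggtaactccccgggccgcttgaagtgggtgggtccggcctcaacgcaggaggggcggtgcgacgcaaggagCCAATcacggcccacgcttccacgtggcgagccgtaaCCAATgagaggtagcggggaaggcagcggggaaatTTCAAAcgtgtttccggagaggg
Gtse1: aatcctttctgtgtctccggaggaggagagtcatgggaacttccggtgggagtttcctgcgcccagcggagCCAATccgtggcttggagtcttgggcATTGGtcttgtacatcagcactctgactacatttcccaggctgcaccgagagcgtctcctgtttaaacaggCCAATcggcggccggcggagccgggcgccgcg
Mybl2: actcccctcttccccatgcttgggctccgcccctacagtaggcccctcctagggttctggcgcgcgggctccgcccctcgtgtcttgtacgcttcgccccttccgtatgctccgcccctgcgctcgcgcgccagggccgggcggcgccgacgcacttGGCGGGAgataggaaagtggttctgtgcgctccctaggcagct
Cdk1: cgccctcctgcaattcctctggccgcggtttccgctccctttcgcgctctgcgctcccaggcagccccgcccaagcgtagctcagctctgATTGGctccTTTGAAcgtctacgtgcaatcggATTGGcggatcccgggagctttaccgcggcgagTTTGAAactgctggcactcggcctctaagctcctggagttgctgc
The stretch of Cdc25b, which was lower, and that of Ttk, which was higher, both hold a CHR at 8 and a CCAAT box at -28. The CCAAT boxes lie on opposite strands in these genes. The CHR of Cdc25b, TTCGAA, reads the same on both strands, and that of Ttk is a TTTGAA on the opposite strand. Cdc25b also has an E2F core at -55, and Ttk a further CCAAT box at -65. Gtse1 has CCAAT boxes but no CHR within its 300 bases, and Mybl2 has neither but carries an E2F core at -13.

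**Figure D1:**
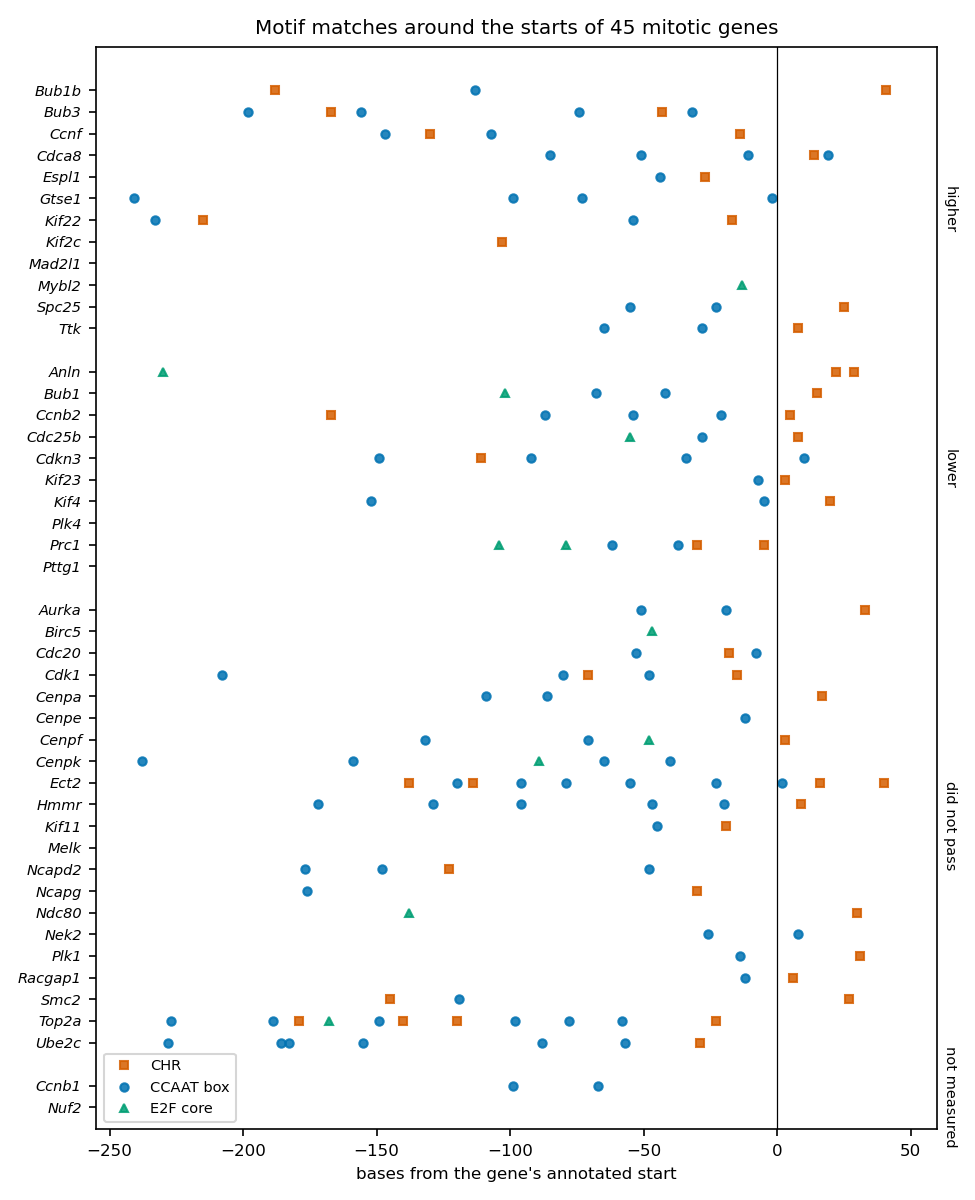
Positions of CHR (squares), CCAAT box (circles) and E2F core (triangles) matches in the promoter windows of 45 mitotic genes, in bases from the annotated start (x axis, all annotated starts of a gene laid over each other), with the genes grouped by their call on the arrays. Squares and circles crowd around and just before the start in genes that were higher, lower or did not pass, with median positions of -16 for the CHR and -69.5 for the CCAAT box.

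A check of the labels comes before the values. Slc3a2, the gene of CD98hc, had RMA values of 11.65, 11.57 and 11.54 (log2) on KO-labelled arrays, against 10.64, 10.67 and 10.51 on WT-labelled ones, and differed by 0.98 on the log2 scale with a standard error of 0.075 and an adjusted p = 0.00012 in limma. The gene that the KO should lack was thus brighter on the arrays labelled KO, and the sources do not say whether its probe set lies in the deleted part, so all directions below are those of the labels. Array values correlated at 0.9906 to 0.9938 within the groups and at 0.9112 to 0.92 between them. Pluripotency markers counted 15 higher and 0 lower of 16 on KO-labelled arrays, with summed linear levels of 33140 to 36887 there and 1051 to 1145 on the arrays labelled WT. Of 19 fibroblast markers, 1 was higher and 12 were lower, with sums of 2914 to 4002 on KO-labelled and 25884 to 37974 on WT-labelled arrays, and of 12 epithelial markers 11 were higher, with sums of 3864 to 5760 on KO-labelled and 415 to 439 on WT-labelled arrays. Pou5f1 and Nanog averaged 4.76 and 4.16 on the WT-labelled arrays, and Col3a1 and Cd44 averaged 4.42 and 4.21 on the KO-labelled arrays, near the median of 4.23 of 23 probe sets that the array maker lists as nonspecific. Not all markers lay that low: Vim and Fn1 averaged 10.61 and 10.03 on the KO-labelled arrays. Klf4 and Sox2 averaged 8.79 and 7.03 on the WT-labelled arrays. The part of this difference in cell type markers in the mitotic values was not tested.

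The mitotic genes did not move as one group. Of the 53 measured genes, 13 (24.5%) were higher and 15 (28.3%) lower on the arrays labelled KO at an adjusted p under 0.05, beside 22.6% and 19.2% of all 17097 genes, and 25 did not pass. Together 28 (52.8%) were called, beside 41.9% of all genes, and the values of the groups did not overlap for 34 (64.2%), beside 51.5%. All called genes were among those without overlap. Changes past 2-fold were seen for 7 of the 28 (13.2% of those measured, beside 19.4% of all genes), 2 of them higher and 5 lower (9.27% and 10.1% of all genes). Bub1 counts among the 15 lower and the 5 lower past 2-fold by its dimmer probe set, although its brighter one was called higher. The median log2 fold change was -0.12, beside 0.018 for all genes, and the range ran from -2.18 to 1.59, beside -7.45 to 7.95. For 32 genes (60.4%) the change was under 0.5 on the log2 scale, beside 62.7% of all genes, and no gene of the group changed by more than 3, as 489 genes (2.86%) did. In RNA of bulk cultures, fewer cells in mitosis and less of a transcript per cell cannot be told apart. Leaving out WT replicate 1 or WT replicate 3 lowered the count of genes higher on KO-labelled arrays to 8.

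**Figure D2:**
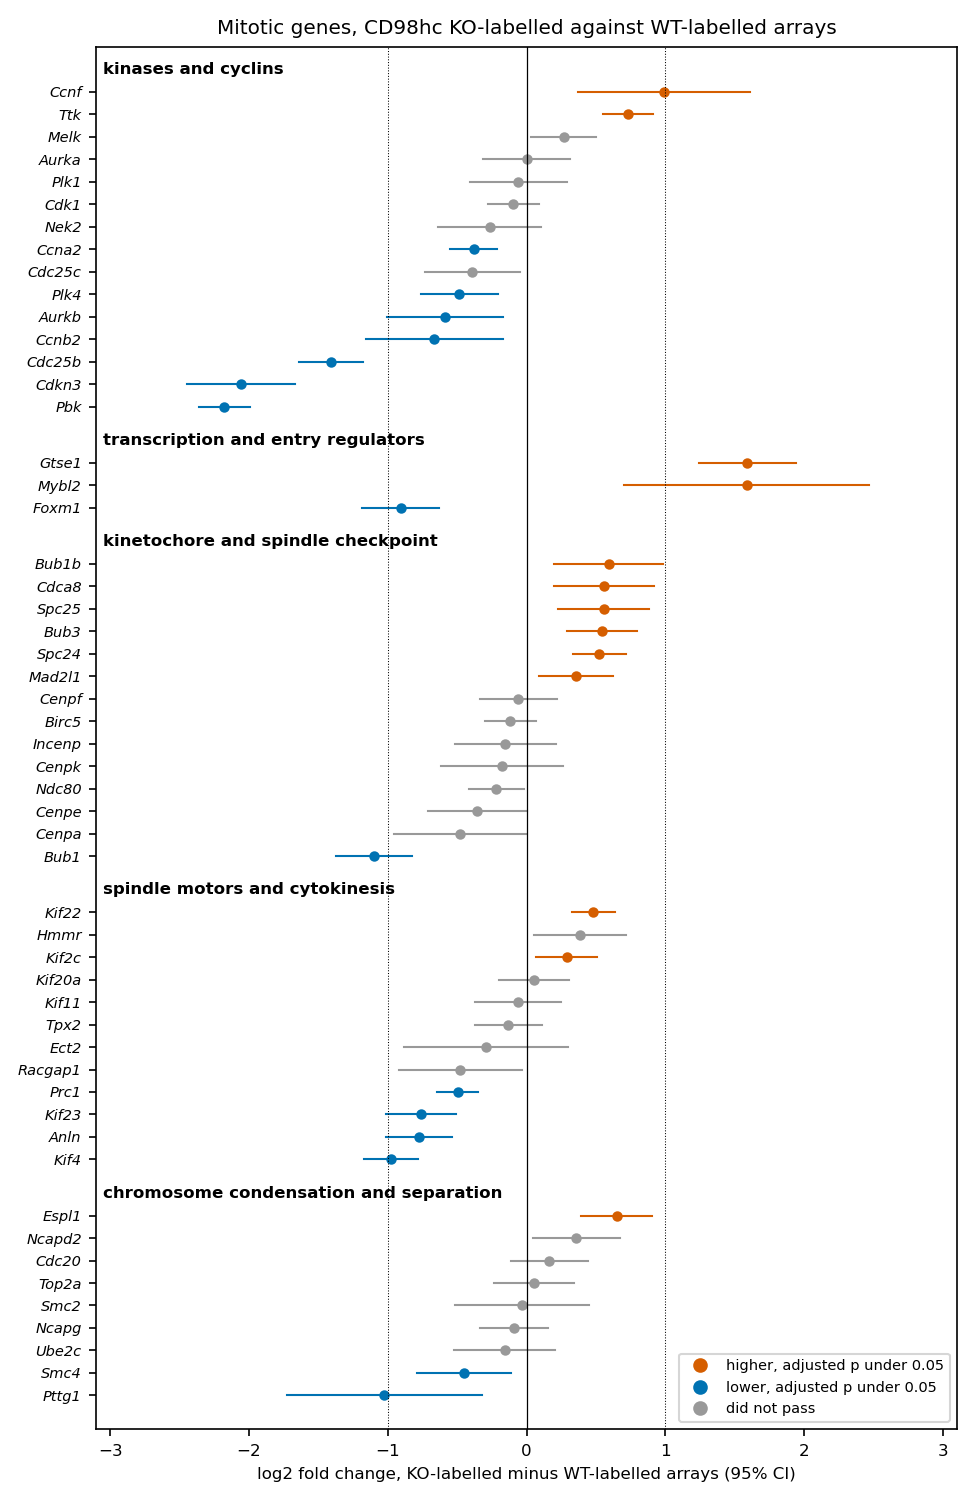
Log2 fold change (x axis, arrays labelled KO minus arrays labelled WT) of the 53 measured mitotic genes, with 95% confidence intervals from limma, grouped by role. Genes higher (orange), lower (blue) and without a call (grey) stand in every group except the 3 regulators, all of which were called, and the values run from -2.18 for Pbk to 1.59 for Gtse1 and Mybl2.

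Among the kinases, phosphatases and cyclins, 7 of 15 were lower, 2 higher and 6 did not pass, with a median of -0.38. Of all genes, 19.2% were lower and 22.6% higher. Pbk, a MAPKK-like kinase active in mitosis, had values of 8.02, 7.87 and 7.98 on the arrays labelled KO, against 10.20, 10.15 and 10.06 on those labelled WT. The groups lay far apart, and Pbk was 4.53-fold lower on KO-labelled arrays (log2 fold change -2.18, standard error 0.076, adjusted p = 5.6e-06). Cdkn3, a phosphatase that acts on cyclin-dependent kinases, had 8.24, 8.48 and 8.42 on KO-labelled and 10.09, 10.60 and 10.63 on WT-labelled arrays. All KO values again lay below all WT values, with a change of -2.06 (standard error 0.16, adjusted p = 0.00014). Cdc25b, which removes the inhibitory phosphates from CDK1 and starts its activation, had 7.64, 7.96 and 7.83 on KO-labelled and 9.18, 9.21 and 9.27 on WT-labelled arrays. The groups were apart and the gene was 2.66-fold lower (log2 fold change -1.41, standard error 0.096, adjusted p = 7.9e-05).

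Cdc25b activates CDK1, whereas Cdkn3 removes a phosphate that active CDKs need, so the genes that fell most do not share a direction of action on CDK1. The central kinases themselves did not pass. Cdk1 had 11.72, 11.74 and 11.64 on KO-labelled and 11.72, 11.90 and 11.75 on WT-labelled arrays, with a change of -0.10 (95% confidence interval -0.28 to 0.09, adjusted p = 0.40) and overlapping groups. Plk1, the Polo kinase of spindle assembly, had 10.96, 10.44 and 10.68 on KO-labelled arrays, against 10.67, 10.68 and 10.90 on WT-labelled arrays, with a change of -0.06 (interval -0.41 to 0.29). Aurka, the Aurora kinase of the spindle poles, had 10.60, 10.26 and 10.61 on KO-labelled arrays, against 10.42, 10.38 and 10.68 on WT-labelled arrays and the smallest change of the group (-0.00067, interval -0.32 to 0.31). A miss of the threshold does not show that these levels were equal, but all 3 intervals lay inside a 2-fold change in either direction. Melk (0.27), Nek2 (-0.27) and Cdc25c (-0.39) did not pass either. Melk was called when replicate 3 or each replicate number was added to the fit, and without WT replicate 5. Cdc25c was called with each replicate number added and after median centring.

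The cyclins went different ways. Ccnb2, a B-type cyclin, had 9.86, 9.20 and 9.78 on KO-labelled and 10.14, 10.15 and 10.55 on WT-labelled arrays, with groups apart and a change of -0.66 (standard error 0.20, adjusted p = 0.040). That call was lost when KO replicate 3 (adjusted p = 0.056), KO replicate 5 (0.058), WT replicate 1 (0.066), WT replicate 3 (0.072) or WT replicate 5 (0.11) was left out. Ccna2, the cyclin of S phase and early mitosis, fell by 0.38 (standard error 0.070, adjusted p = 0.0052), although its brighter probe set gave -0.18 and did not pass (adjusted p = 0.060). Ccnf, the F-box cyclin that directs proteins to degradation, was higher, with 8.23, 7.50 and 8.36 on KO-labelled and 7.04, 6.75 and 7.33 on WT-labelled arrays. Its change was 0.99 (standard error 0.26, adjusted p = 0.022), a second, brighter probe set gave 0.93, and the call was lost without KO replicate 1 (adjusted p = 0.070), KO replicate 5 (0.066), WT replicate 1 (0.061) or WT replicate 3 (0.074). Of the remaining kinases, Ttk, which starts checkpoint signalling at kinetochores, had 10.40, 10.29 and 10.28 on KO-labelled and 9.50, 9.63 and 9.65 on WT-labelled arrays. The groups were narrow and apart, at 0.73 (standard error 0.075, adjusted p = 0.00043). Aurkb, the kinase of the chromosomal passenger complex, fell by 0.59 (standard error 0.17, adjusted p = 0.034), and Plk4, the kinase of centriole duplication, fell by 0.49 (adjusted p = 0.015). Both calls were lost without KO replicate 1 (adjusted p = 0.052 for Aurkb and 0.050 for Plk4).

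**Figure D3:**
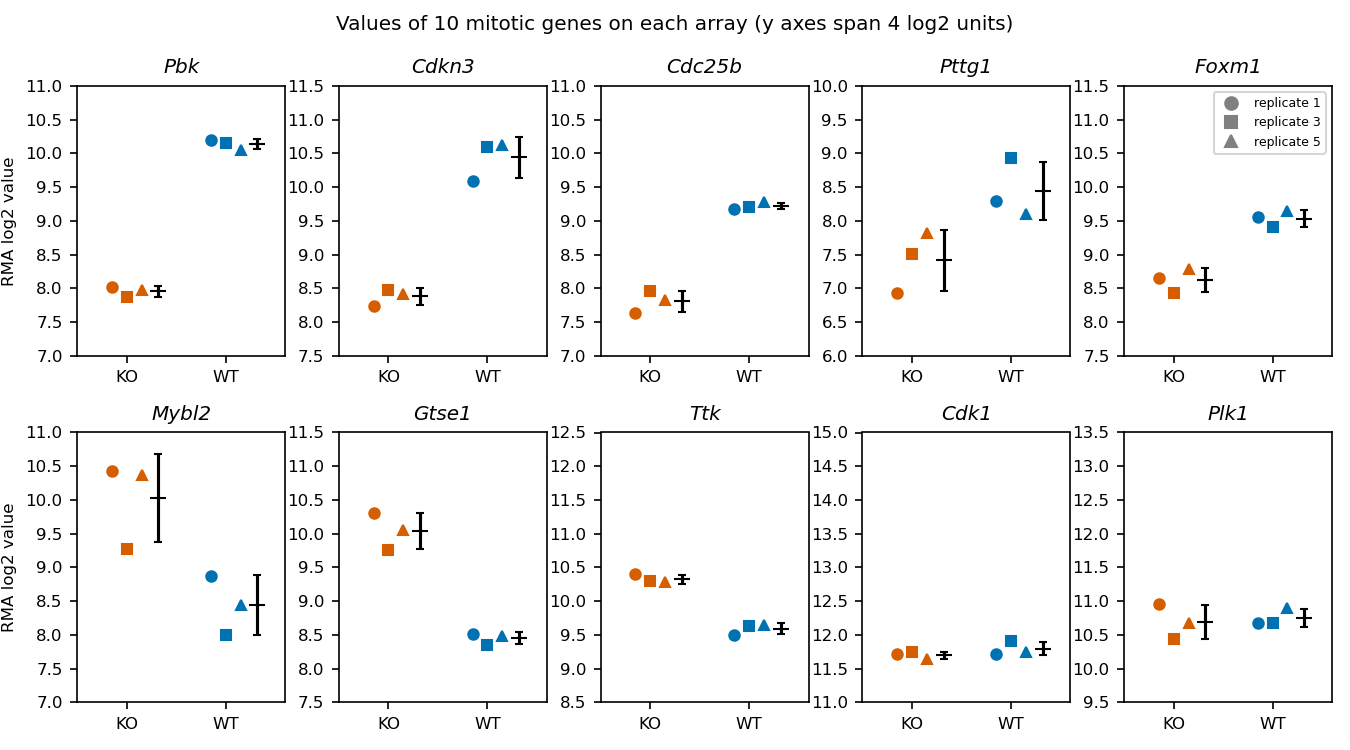
RMA log2 values (y axes, each spanning 4 log2 units) of 10 mitotic genes on the 3 arrays labelled KO (orange, left) and the 3 labelled WT (blue, right), with marker shapes for the replicate number and black bars for mean ± SD. Pbk, Cdkn3 and Cdc25b lie lower on every KO-labelled array, Gtse1, Mybl2 and Ttk lie higher, and Cdk1 and Plk1 overlap.

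The 3 regulators were all called, beside 41.9% of all genes, and went in opposite directions. Gtse1, a microtubule-binding protein of the late cell cycle that also restrains p53, had 10.31, 9.76 and 10.06 on KO-labelled arrays, against 8.52, 8.35 and 8.49 on WT-labelled arrays. It was 3.01-fold higher (log2 fold change 1.59, standard error 0.14, adjusted p = 0.00025). Mybl2 had 10.43, 9.27 and 10.38 on KO-labelled and 8.88, 8.00 and 8.44 on WT-labelled arrays. Within each group the replicate 3 array was the lowest, the groups did not overlap, and the change was 1.59 (standard error 0.37, adjusted p = 0.014). Its second probe set gave 1.17 (standard error 0.19). Foxm1, its partner on MuvB-bound promoters, moved the other way, with 8.66, 8.44 and 8.79 on KO-labelled and 9.56, 9.40 and 9.65 on WT-labelled arrays (log2 fold change -0.91, standard error 0.11, adjusted p = 0.0010). The size of its fall depended on the probe set: of the 3 others, those of similar brightness gave -0.41 each, with 1 of them called (adjusted p = 0.045) and the other not (0.066), and a dim one near background gave 0.0042.

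Promoters with these elements were counted by the call of their genes. A CHR together with a CCAAT box was found in 8 of 12 genes that were higher (66.7%), 7 of 10 that were lower (70.0%) and 15 of 21 that did not pass (71.4%). A CHR, with or without a CCAAT box, was counted in 75.0%, 80.0% and 76.2% of them, in the same order. The E2F core was found in 1 of 12 genes that were higher (8.33%), 4 of 10 that were lower (40.0%) and 5 of 21 that did not pass (23.8%). Bub1, which carries each of these motifs, counts as lower here, although its probe sets were called in opposite directions. These are counts of words in a window and not of bound sites, and with 10 to 21 genes a group they are given as a description, with no test of a difference.

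At the kinetochore and in the spindle checkpoint, 6 of 14 genes were higher, 1 was lower and 7 did not pass. The median was -0.09, and of all genes 22.6% were higher and 19.2% lower. The 1 lower gene of the 14 was Bub1, whose probe sets were called in opposite directions. Spc24 and Spc25 are the NDC80 complex subunits that anchor it to the inner kinetochore. Spc24 had 8.96, 9.01 and 9.14 on KO-labelled and 8.44, 8.53 and 8.57 on WT-labelled arrays, with a change of 0.52 (standard error 0.079, adjusted p = 0.0022) and groups apart. Spc25 was higher by 0.55 (adjusted p = 0.017), a call lost without WT replicate 1 (0.057) or WT replicate 5 (0.053), while Ndc80, the subunit that grips the microtubule, did not pass (-0.22, interval -0.42 to -0.02, adjusted p = 0.075). Ndc80 was called after median centring and without KO replicate 5.

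The checkpoint proteins BUBR1 (Bub1b), BUB3 (Bub3) and MAD2 (Mad2l1), which together inhibit the anaphase promoting complex, were all called higher, on calls that depended on the probe set or on single arrays. Bub1b had 10.59, 10.27 and 10.50 on KO-labelled and 9.62, 9.80 and 10.18 on WT-labelled arrays (log2 fold change 0.59, standard error 0.16, adjusted p = 0.027), and its groups came within a narrow gap of each other. Its mean over 3 probe sets gave 0.29 (adjusted p = 0.22). Without WT replicate 1 the change was 0.39 (adjusted p = 0.24), and the call was also lost without KO replicate 1 (0.084), KO replicate 5 (0.078) or WT replicate 3 (0.084). Bub3 had 10.01, 10.17 and 9.98 on KO-labelled arrays, against 9.36, 9.67 and 9.50 on WT-labelled arrays with 1 of its 4 probe sets (0.54, adjusted p = 0.0061), but its brightest probe set gave 0.02 (adjusted p = 0.86). Mad2l1 was higher by 0.36 (adjusted p = 0.041), a call lost when the arrays were centred on their medians (0.28, adjusted p = 0.10) or quantile normalised (0.33, 0.052), and without KO replicate 1 (0.11), KO replicate 3 (0.073), WT replicate 1 (0.097) or WT replicate 3 (0.12).

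Bub1, the checkpoint kinase that marks centromeric chromatin, had probe sets that were called in opposite directions. The probe set used for the gene, the more variable one, was dim, with 4.93, 4.95 and 4.69 on KO-labelled and 5.79, 6.09 and 6.0 on WT-labelled arrays (-1.10, standard error 0.11, adjusted p = 0.00042). The brighter one had 9.46, 9.87 and 9.55 on KO-labelled and 9.04, 9.37 and 9.04 on WT-labelled arrays (0.48, standard error 0.14, adjusted p = 0.039). Neither direction can be given for the gene from these values. Of the chromosomal passenger complex, which corrects wrong attachments, Cdca8 (borealin) was called higher (0.56, adjusted p = 0.025), whereas its catalytic subunit Aurkb was lower and Birc5 (survivin, -0.12) and Incenp (-0.15) did not pass. The Cdca8 call was lost with its brighter probe set (0.28, adjusted p = 0.14) and without KO replicate 1 (0.071), KO replicate 5 (0.075), WT replicate 3 (0.068) or WT replicate 5 (0.057). Cenpf, a large protein of the outer kinetochore, had 10.08, 10.35 and 10.35 on KO-labelled and 10.22, 10.50 and 10.24 on WT-labelled arrays, the smallest change of the group (-0.06, interval -0.34 to 0.22). Cenpk (-0.18), the motor Cenpe (-0.36) and the centromeric histone Cenpa (-0.48) did not pass. Cenpe was called when replicate 3 or each replicate number was added to the fit. Cenpa was called with the mean of its probe sets and without KO replicate 5.

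**Figure D4:**
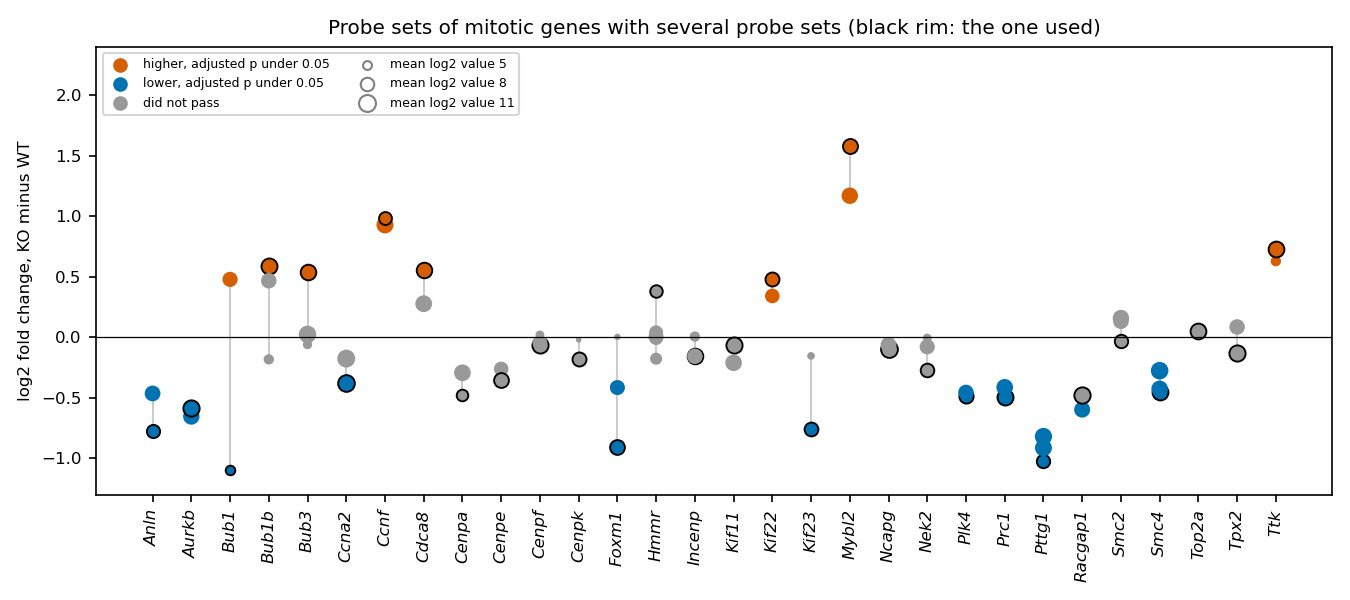
Log2 fold change (y axis, KO-labelled minus WT-labelled arrays) of every probe set of the 30 mitotic genes with more than 1, with point size for the mean log2 value, colour for the call and a black rim around the probe set used. Bub1 has a dim probe set at -1.10 and a brighter one at 0.48, while the 3 probe sets of Pttg1 and both of Mybl2 lie on 1 side of zero.

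No other gene had probe sets called in opposite directions. Of the 30 genes with several probe sets, 10 had all of them called the same way, 7 had some called one way and others not called, 12 had none called, and only Bub1 had calls both ways. Among the 10 were Aurkb, Ccnf, Mybl2, Plk4, Prc1, Pttg1 and Ttk.

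Of 12 genes of spindle motors and cytokinesis, 4 were lower, 2 higher and 6 did not pass, with a median of -0.21. Beside them, 19.2% of all genes were lower and 22.6% higher. Kif4, a chromosome-bound kinesin that also works at the central spindle, had 7.81, 7.73 and 7.80 on KO-labelled arrays, against 8.83, 8.63 and 8.82 on WT-labelled arrays. The groups were tight and apart (log2 fold change -0.98, standard error 0.081, adjusted p = 0.00018). Anln, the anillin scaffold of the contractile ring, had 7.25, 7.59 and 7.39 on KO-labelled and 8.22, 8.19 and 8.15 on WT-labelled arrays (-0.78, standard error 0.098, adjusted p = 0.0010). Its brighter probe set gave -0.46 (adjusted p = 0.0054). Kif23, the kinesin of the centralspindlin complex, had 8.02, 7.73 and 7.86 on KO-labelled and 8.69, 8.49 and 8.72 on WT-labelled arrays (-0.76, standard error 0.10, adjusted p = 0.0015), and gave -0.46 as a mean with its dim second probe set (adjusted p = 0.0012).

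Prc1, which bundles the antiparallel microtubules between the poles, fell by 0.50 (adjusted p = 0.00097). Racgap1, the partner of Kif23 in centralspindlin, did not pass with the probe set used (-0.48, adjusted p = 0.082), while its second probe set was called (-0.60, adjusted p = 0.0021). Leaving out KO replicate 3 (adjusted p = 0.0056) or WT replicate 5 (0.0067) also brought Racgap1 under the threshold. Ect2, the exchange factor that switches on RhoA at the furrow, gave -0.29 with a wide interval (-0.88 to 0.29). Both Ect2 and Racgap1 were called when replicate 3 or each replicate number was added to the fit. Racgap1 was also called with the mean of its probe sets or with replicates 1 and 5 only. Kif22, a chromokinesin, was higher, with 8.68, 8.63 and 8.65 on KO-labelled and 8.13, 8.23 and 8.16 on WT-labelled arrays (0.48, standard error 0.064, adjusted p = 0.0013). Kif2c, a kinesin that takes microtubules apart at centromeres, was called higher (0.29, adjusted p = 0.043), but not after median centring (0.21, adjusted p = 0.11), nor without KO replicate 1 (0.13), KO replicate 5 (0.12), WT replicate 1 (0.13) or WT replicate 3 (0.11). Kif20a, a kinesin of the central spindle, had 10.53, 10.41 and 10.67 on KO-labelled and 10.52, 10.33 and 10.60 on WT-labelled arrays, with a change of 0.05 (interval -0.20 to 0.30). Kif11 (-0.06), which pushes the poles apart, Tpx2 (-0.13), which activates Aurora A on the spindle, and Hmmr (0.38) did not pass. Kif11 was called after median centring and without WT replicate 1, and Hmmr after quantile normalisation and without KO replicate 1.

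Among 9 genes of chromosome condensation and separation, 1 was higher, 2 were lower and 6 did not pass, with a median of -0.03. Beside them, 22.6% of all genes were higher and 19.2% lower. Separase and its inhibitor securin went opposite ways. Espl1 (separase) had 10.27, 10.32 and 10.47 on KO-labelled arrays, against 9.80, 9.80 and 9.52 on WT-labelled arrays, a change of 0.65 (standard error 0.11, adjusted p = 0.0032) with groups apart. Pttg1 (securin) had 6.93, 7.50 and 7.82 on KO-labelled and 8.30, 8.93 and 8.10 on WT-labelled arrays. The gap between its groups was narrow, the change was -1.03 (standard error 0.29, adjusted p = 0.030), and the call was lost without KO replicate 3 (0.060) or WT replicate 1 (0.061). Its 2 brighter probe sets fell by 0.91 and 0.82 (adjusted p = 0.021 and 0.0052). Smc4, a condensin subunit, had 9.69, 10.02 and 9.68 on KO-labelled and 10.19, 10.47 and 10.07 on WT-labelled arrays (-0.45, adjusted p = 0.043). Its brightest probe set gave -0.28 (adjusted p = 0.032). It did not pass after quantile normalisation (adjusted p = 0.054) or without KO replicate 1 (0.12), KO replicate 5 (0.13), WT replicate 1 (0.085) or WT replicate 3 (0.11). Its partner Smc2 had 8.16, 7.59 and 7.98 on KO-labelled and 8.17, 7.60 and 8.07 on WT-labelled arrays, with overlapping groups and a change of -0.03 (interval -0.52 to 0.45). Ncapd2 (0.36) and Ncapg (-0.09), also of condensin, did not pass, nor did topoisomerase II (Top2a, 0.05), Cdc20 (0.16), which activates the anaphase promoting complex, or Ube2c (-0.16), its ubiquitin-conjugating enzyme. Ncapd2 was called without WT replicate 5.

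The other genes of mitosis, from 6 lists of 137 genes of which 126 were measured, were split evenly. They counted 35 higher (27.8%), 35 lower (27.8%) and 56 that did not pass, beside 22.6% and 19.2% of all genes, with a median of 0.01. Past 2-fold were 17 of the 126, 5 higher and 12 lower, beside 19.4% of all genes (9.27% higher and 10.1% lower). The same 22.6% higher and 19.2% lower of all genes stand beside the counts of each list below. The largest changes were among other entry kinases and phosphatases, of which 5 were higher and 8 lower of 21. Lats2, a Hippo pathway kinase that is also found at spindle poles, had 4.55, 4.85 and 4.96 on KO-labelled arrays, against 8.74, 8.82 and 8.59 on WT-labelled arrays. This was the largest change in any of the mitotic lists (-3.93, standard error 0.13, adjusted p = 4.3e-06), and -1.91 as a mean over its probe sets. Its relative Lats1 had 7.29, 8.32 and 7.62 on KO-labelled and 9.94, 10.15 and 9.72 on WT-labelled arrays (-2.19, adjusted p = 0.00092), and Plk2, a Polo kinase known for roles at centrioles and in stress, had 8.51, 8.72 and 8.23 on KO-labelled arrays, against 10.38, 10.32 and 10.40 on WT-labelled arrays (-1.88, adjusted p = 8.0e-05). These 3 kinases also act outside mitosis.

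Of 15 subunits of the MuvB, DREAM and NF-Y complexes, which bind the promoter elements shown above, 6 were higher and 4 lower. The pocket proteins Rbl1 and Rbl2, which make DREAM a repressor, were both lower. Rbl1 had 6.29, 6.22 and 6.48 on KO-labelled and 7.91, 8.44 and 8.58 on WT-labelled arrays (-1.98, adjusted p = 0.00026). Rbl2 had 5.12, 4.82 and 4.88 on KO-labelled and 6.75, 6.84 and 6.94 on WT-labelled arrays (-1.91, adjusted p = 3.2e-05), and its KO-labelled values were dim. As means over their probe sets, the changes were -1.59 for Rbl1 and -1.36 for Rbl2. The NF-Y subunit Nfyb was higher, with 10.68, 10.97 and 10.75 on KO-labelled and 9.65, 9.79 and 9.54 on WT-labelled arrays (1.14, adjusted p = 0.00030). Another NF-Y subunit, Nfya, was called lower, but not without KO replicate 1 (-0.77, adjusted p = 0.083), KO replicate 5 (-0.87, 0.080) or WT replicate 3 (-0.69, 0.059). Lin9, of MuvB, was also called lower. That call was lost after quantile normalisation (adjusted p = 0.053) and without KO replicate 1 (0.093), KO replicate 5 (0.10) or WT replicate 1 (0.052).

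The anaphase promoting complex and its regulators had 6 of 15 genes higher and 2 lower, with a median of 0.36. Fbxo5, an inhibitor of the complex, had 10.96, 10.87 and 10.88 on KO-labelled and 9.96, 9.88 and 9.98 on WT-labelled arrays (0.97, adjusted p = 8.2e-05). Its subunit Anapc15 rose by 1.12 (adjusted p = 0.0012), though its brightest probe set gave 0.50 (adjusted p = 0.087), and Cdc27 was higher by 0.87 (adjusted p = 0.0077), though by 0.49 as a mean of probe sets (adjusted p = 0.075) and by 0.46 without WT replicate 1 (adjusted p = 0.45).

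Among 31 other kinetochore and centromere genes, 11 were higher and 8 lower. Cenpi had 7.77, 7.79 and 7.73 on KO-labelled and 8.95, 9.02 and 8.72 on WT-labelled arrays (-1.13, adjusted p = 0.00017). Hjurp, the chaperone that loads the centromeric histone, fell by 1.07 (adjusted p = 0.0027), and Cenpn, which binds that histone, was higher by 0.92 (adjusted p = 0.00032). Across this list and the 55 genes, 13 genes of the constitutive centromere network were measured, Cenpk among them. Of these, 7 were higher and 2 lower (median 0.40), beside 22.6% and 19.2% of all genes. This subset was chosen after the values were seen, and none of its higher genes was past 2-fold. The Cenpp call was lost without KO replicate 1 (adjusted p = 0.076), KO replicate 3 (0.075), WT replicate 1 (0.078) or WT replicate 5 (0.075).

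Among 27 other genes of spindle and cytokinesis, 3 were higher and 9 lower. Cep55, which recruits the machinery for the last cut between daughter cells, had 8.28, 8.72 and 8.78 on KO-labelled and 9.88, 10.02 and 9.53 on WT-labelled arrays (-1.22, adjusted p = 0.0021). Haus6, of the augmin complex that branches spindle microtubules, was lower by 0.92 on the log2 scale, but by 0.26 with its brightest probe set (adjusted p = 0.00083 and 0.040). Nusap1, a spindle-associated protein, had -0.96 (adjusted p = 0.038) and did not pass with its brightest probe set (-0.39, adjusted p = 0.20) or without KO replicate 3 (0.10), KO replicate 5 (0.084), WT replicate 1 (0.072) or WT replicate 5 (0.057).

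Among 17 other genes of cohesin, condensin and mitotic chromosomes, 4 were higher and 4 lower. Ncapg2, of the second condensin, had 6.85, 6.80 and 6.5 on KO-labelled and 7.55, 8.17 and 7.91 on WT-labelled arrays (-1.16, adjusted p = 0.0023). Esco1, which acetylates cohesin, was higher by 0.73 (adjusted p = 0.0041), and the cohesin subunit Rad21 was lower, at -0.51 (adjusted p = 0.0052), a call lost with its brightest probe set (-0.19, adjusted p = 0.092) and without KO replicate 3 (0.079). Mki67, the chromosome-surface protein used to stain cycling cells, had 9.90, 10.14 and 10.31 on KO-labelled and 10.61, 10.52 and 10.57 on WT-labelled arrays. Its groups did not overlap, at a change of -0.45 (standard error 0.11, adjusted p = 0.019), and its call was lost without WT replicate 1 (0.061) or WT replicate 5 (0.051).

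**Figure D5:**
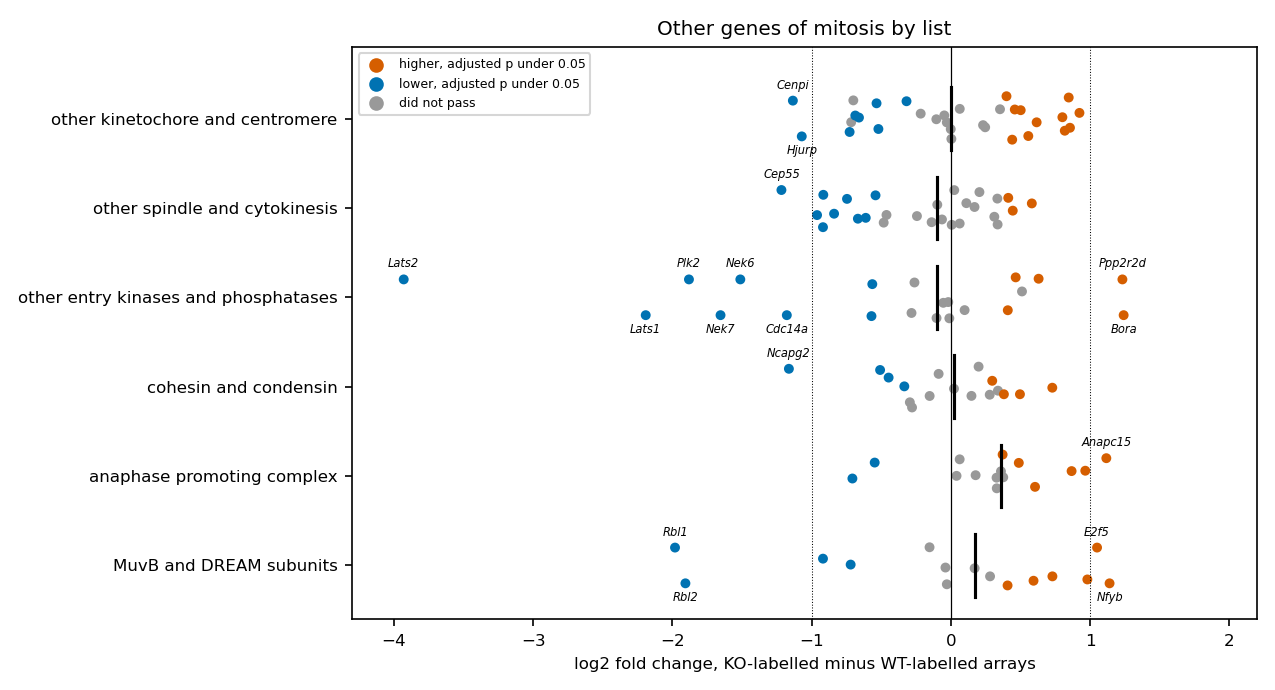
Log2 fold change (x axis, arrays labelled KO minus arrays labelled WT) of 126 other genes of mitosis in 6 lists (rows, points spread vertically for legibility), with black bars at each list's median and names at genes past 2-fold. The lists hold genes on both sides of zero, with Lats2 at -3.93, and the anaphase promoting complex has its median at 0.36.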

How the data were processed

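RNA of 3 KO-labelled and 3 WT-labelled arrays was measured. The authors made the deposited log2 values by RMA, which corrects background, normalises between arrays and summarises each probe set, and the labels name RMA with no version. Background correction and scale therefore act on all probe sets together, and depth has no counterpart here: the number of arrays limits the precision. Array medians were 5.69, 5.71 and 5.71 on KO-labelled and 5.62, 5.64 and 5.62 on WT-labelled arrays.

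Gene names came from the annotation of the array platform: of 45141 (104 of them controls), 28898 had 1 symbol, 551 several and 15692 were unnamed here. Of those with 1 symbol, 28689 matched the RefSeq gene table of GRCm38.p6, and 0 symbols changed. Each gene took its most variable probe set (SD over the 6 arrays). Differences, KO-labelled minus WT-labelled, were fitted in limma 3.58.1 under R 4.3.3 (lmFit, eBayes) with Benjamini-Hochberg adjustment over 17097 genes. Called means an adjusted p under 0.05. For every probe set of a gene, adjustment ran over all named probe sets. The study's model also held a scan batch, which the sources do not give for each array, so no covariate entered. For a single gene an exact permutation test of 3 against 3 arrays cannot go below p = 0.1 and was not used.

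The genes and lists were chosen with earlier results of these data known. Named with array values by rule were genes past 2-fold, the 3 largest called changes and the smallest change of each of the 5 role groups, probe sets called both ways, Slc3a2 and Mki67, and up to 3 called genes of each other list by size of change. Cdk1, Plk1 and other members were named after their values were seen. Alternatives were the replicate number as a block, replicate 3 against replicates 1 and 5 as a covariate, the choice or mean of probe sets, median centring, quantile normalisation, a filter on mean log2 values under 5, the variance model and each array left out. The 4 arrays of replicates 1 and 5 alone were added after seeing the data. On simulated data over 17097 genes, 47 of 100 genes shifted by 0.75, 90 of 100 shifted by -1.5 and 4 of 16897 unshifted genes were called in the comparison of KO with WT. Figures used matplotlib 3.10.9 (Python 3.11.15).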

Additional observations from a re-analysis of the deposited data

How the results depend on the processing

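The counts of mitotic genes higher, lower and past 2-fold kept within 1.5 times of 13, 15 and 7 under the replicate block, the covariate for replicate 3, the brightest or mean probe set, both further normalisations, the dim filter and the other variance model. Leaving out 1 array at a time gave 8 to 13 higher, 12 to 15 lower, 6 to 8 past 2-fold and a median of -0.18 to -0.095, and for the other mitotic genes 27 to 32 higher and 28 to 32 lower. With every probe set counted, 25 of 100 were lower and 18 higher. The median was -0.21 after median centring and -0.075 with replicates 1 and 5 only, where 23 of the 28 calls were shared. The direction of Bub1 reversed with the brightest probe set (0.48).

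Same-numbered arrays deviated together at 0.037, 0.58 and 0.15 for replicates 1, 3 and 5. The main fit did not take the numbers as pairs and left any shift shared by same-numbered arrays in its error. With the replicate block 32 genes were called, 27 of them shared, Mad2l1 was lost (adjusted p = 0.054), and Cdc25c, Cenpe, Ect2, Melk and Racgap1 were gained, with 13 higher, 19 lower, 7 past 2-fold and a median of -0.12. The hybridisation controls (9 probe sets) were lower by a mean log2 difference of -1.25 on the 2 replicate 3 arrays than on the other 4. With a covariate for these arrays 32 genes were called, all 28 among them, and Cenpe, Ect2, Melk and Racgap1 were gained. Over the settings other than the 4 arrays of replicates 1 and 5, leaving out each array included, 14 genes were called in every one, 15 in none and 24 in some. The number of arrays limits small changes. Of simulated shifts of 0.75, under 50 of 100 were called. Only 100 genes were shifted by 0.75 and 100 by -1.5 there, whereas 41.9% of all genes were called in the data. The adjusted threshold was thus stricter in the simulation, and its share of genes called does not carry over to the real calls.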
